A study of Homo sapiens with 2 samples.

Results

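The peroxiredoxin and thioredoxin system was taken as 10 named genes: the peroxiredoxins PRDX1 to PRDX6, the thioredoxins TXN and TXN2, the mitochondrial thioredoxin reductase TXNRD2 and the thioredoxin-binding protein TXNIP. They were found by symbol among probes annotated to a single gene, and 9 of the 10 were found, each with 1 probe, among 18417 genes in all. No probe in the annotation used here carried PRDX5, and it was not analysed here. The rule itself uses no measured value, but the genes were listed with earlier results of these data known. The cells were HepG2, an established human line from a liver tumour. They had been exposed to amorphous silica nanoparticles (SiO2-NP) at 100 mg/L for 24 h, and control HepG2 cells of the same series served for comparison. RNA of each was run on 1 Affymetrix array. Per the labels, both cultures were kept in MEM medium in flasks. The labels name no vehicle, particle size or serum content, and state dose and time for the exposed cells only. With 1 array per group there was no replicate error and no test, so higher and lower below describe these 2 arrays and not the conditions.

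Peroxiredoxins reduce hydrogen peroxide and organic peroxides with a reactive cysteine, which is oxidised in the process. Thioredoxin reduces most of them again through its own pair of cysteines, and thioredoxin reductase, a selenoprotein, recharges thioredoxin with electrons from NADPH. PRDX6 differs in that it draws on glutathione. TXN, TXNRD1, PRDX1, PRDX2 and PRDX6 work mainly in the cytosol, PRDX3, TXN2 and TXNRD2 in mitochondria and PRDX4 in the endoplasmic reticulum (ER), while TXNIP binds thioredoxin and is itself induced by glucose. Hepatocytes and hepatoma cells carry this system in quantity because their oxidative metabolism generates peroxide.

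Promoters of 7 of the 10 genes were in the RefSeq table of GRCh38.p14 (PRDX2, PRDX3, PRDX4, PRDX5, TXN, TXNRD2 and TXNIP). The 250 bases before the transcription start are shown for TXN and PRDX4, which had the largest differences of the measured genes, and for TXNIP, whose sugar-responsive element is well known. They run 5′ to 3′ in the direction of the gene, and capitals mark the motif matches described after them.
TXN (chr9:110256508-110256757, minus strand): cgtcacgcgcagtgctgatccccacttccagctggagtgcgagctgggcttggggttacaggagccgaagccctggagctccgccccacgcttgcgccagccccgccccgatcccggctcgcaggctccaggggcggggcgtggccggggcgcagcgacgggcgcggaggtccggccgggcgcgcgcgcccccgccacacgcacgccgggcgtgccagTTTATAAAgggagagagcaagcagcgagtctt
PRDX4 (chrX:23667243-23667492, plus strand): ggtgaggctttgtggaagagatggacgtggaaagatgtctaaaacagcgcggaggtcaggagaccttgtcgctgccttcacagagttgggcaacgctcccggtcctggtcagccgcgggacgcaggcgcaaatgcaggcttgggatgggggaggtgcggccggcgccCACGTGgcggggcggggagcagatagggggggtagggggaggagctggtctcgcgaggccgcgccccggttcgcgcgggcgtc
TXNIP (chr1:145996580-145996829, minus strand): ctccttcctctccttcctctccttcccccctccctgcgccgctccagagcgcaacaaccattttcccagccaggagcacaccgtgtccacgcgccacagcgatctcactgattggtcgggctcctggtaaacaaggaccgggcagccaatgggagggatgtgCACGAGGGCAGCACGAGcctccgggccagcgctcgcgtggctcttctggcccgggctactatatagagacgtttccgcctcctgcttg

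These letters were searched on both strands. In TXN the capitals mark a TATA box, TATAAA, matched on both strands over an overlapping stretch that lay 32 to 25 bases before the start. Of 35116 promoters in the table, 10.7% held that motif in the same window. In PRDX4 the capitals mark the E-box CACGTG, 83 to 78 bases before the start, which 6.34% of promoters held. PRDX3 also had an E-box, 157 to 152 bases before its start. In TXNIP the capitals mark a pair of imperfect E-boxes in the arrangement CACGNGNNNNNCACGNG, the form of a carbohydrate response element, read there as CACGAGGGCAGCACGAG from 88 to 72 bases before the start. Only 16 promoters, 0.0456% of the table, held this arrangement. A second TXNIP promoter was listed (chr1:145995745-145995994), and its window held no such pair. The core of the antioxidant response element, TGACNNNGC, bound by NRF2, was in 10.9% of promoters and in no window of the 7 genes. The cytosolic reductase gene TXNRD1 had it in both of its listed promoters, as TGACTTCGC and, on the other strand, as GCTTTGTCA. The sulfiredoxin gene SRXN1, an NRF2 target too, had no match in its window. The lack of a match therefore does not mark a gene as no target. A match describes the letters only, and the arrays do not measure binding.

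The deposited table gives 1 log2 intensity per probe and array. Genes were called expressed when they averaged a log2 intensity of 7.26 or more, the median over all genes, which filters on level and does not call detection. This left 9209 genes, and all 9 measured members passed. A log2 difference is SiO2-NP minus control, and over the expressed genes it had a median of -0.03 and an SD of 0.16. Intensities of different probes cannot be ranked against each other, so levels are given for each gene on its own. The cells carried the defining transcripts of hepatocytes on both arrays: all 9 measured hepatocyte markers passed the filter, from 10.97 to 13.50 in the control. By contrast, 7 of 8 fibroblast markers, 6 of 8 measured leukocyte markers and all 6 endothelial markers lay under it. The exceptions were COL1A1 (7.43 and 7.67), LYZ (13.23 and 13.27) and CD68 (9.61 and 9.49). In a bulk sample, fewer cells of a type and less RNA per cell cannot be told apart.

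Few of these antioxidant genes differed by much in the exposed cells. None of the 9 reached 1.5-fold in either direction, where 0.391% of the expressed genes did (0.141% higher and 0.25% lower). Of the 9, 8 lay below the control by some amount, against 59.8% of the expressed genes, and their median log2 difference was -0.07. With 2 other scalings the count was 6, because PRDX1 and TXNRD2 changed sign. Their differences ran from -0.36 (TXN) to 0.11 (PRDX2), with an SD of 0.15 over the 9 genes. Their spread was thus like that of the expressed genes. In 5 of the 9 the difference was under 0.1 in size, a share to set beside 51.6% of the expressed genes. The larger negative values were those of TXN, PRDX4 and TXN2.

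**Figure D1:**
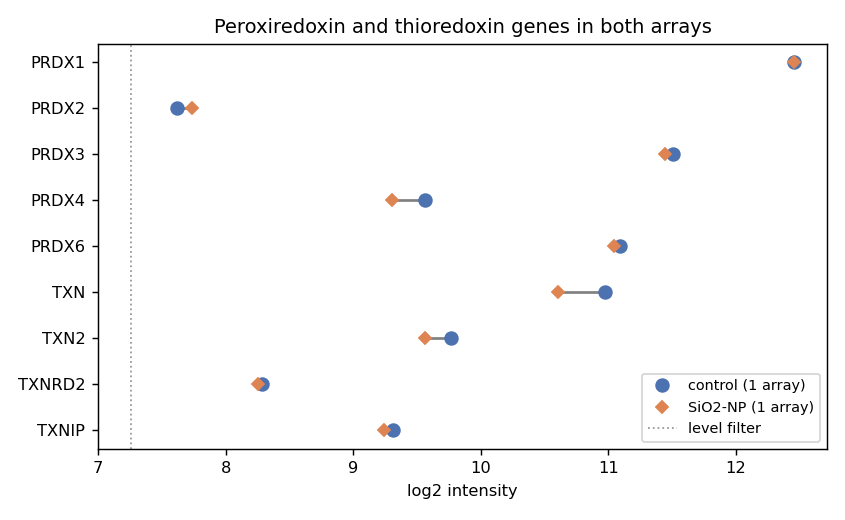
Log2 intensity (x axis) of the 9 measured genes (y axis) in the control array (circles) and the SiO2-NP array (diamonds), 1 array each, with the level filter at 7.26 as a dotted line. The longest bars belong to TXN, PRDX4 and TXN2, and PRDX2 alone lies higher after SiO2-NP in the values as deposited.

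TXN, the cytosolic thioredoxin that passes electrons to peroxiredoxins and to ribonucleotide reductase, had the largest difference. Its log2 intensity was 10.97 in the control and 10.61 after SiO2-NP, a difference of -0.36 or 1.29-fold lower. It was the only one of the 9 past 1.2-fold, where 7.53% of the expressed genes were that much lower and 2.99% that much higher. Of the 9209 expressed genes, 254 (2.76%) had a difference as low as TXN or lower. Genes of like level are a closer comparison, because the spread changes with intensity. Among the 500 other expressed genes nearest to TXN in level, 5 lay as low, and the central 95% of them ran from -0.30 to 0.28. TXN was the only member outside that range, and the range describes genes and not replicate error.

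TXN2, the mitochondrial thioredoxin, read 9.77 in the control and 9.57 after SiO2-NP, which is 1.15-fold lower. Its difference of -0.20 was reached or passed downward by 13.3% of the expressed genes, and by 56 of the 500 nearest in level. Both thioredoxins were therefore on the low side, but the value of TXN2 lies among many others. TXNRD2, the selenoprotein that recharges TXN2, read 8.29 and 8.25, a difference of -0.03 that equals the median of the expressed genes to 2 decimals. TXNIP, the arrestin-fold protein that binds reduced thioredoxin, read 9.31 in the control and 9.24 after SiO2-NP, 1.05-fold lower. Its difference of -0.07 lay well inside the range of genes of like level, -0.33 to 0.21.

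PRDX4, the peroxiredoxin of the ER, which takes part in oxidative protein folding, had the largest difference of the 5 measured peroxiredoxins. It read 9.56 in the control and 9.31 after SiO2-NP, a difference of -0.26 or 1.19-fold lower. Of the expressed genes, 733 (7.96%) were as low, and so were 30 of the 500 nearest in level. PRDX2, the cytosolic enzyme best known from red blood cells, was the only member above the control, where 40.2% of the expressed genes lay. It read 7.62 and 7.73, a difference of 0.11, which 14.2% of the expressed genes reached or passed upward. The PRDX2 probe lay closest of the 9 to the level filter, and a filter at the 75th percentile of gene levels would leave it and TXNRD2 out.

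The other 3 peroxiredoxins differed by little. PRDX1, the main cytosolic enzyme, read 12.46 in the control and 12.45 after SiO2-NP, a difference of -0.0059, and 96.6% of the expressed genes had a difference at least that large in size. PRDX3, which clears peroxide inside mitochondria, read 11.51 and 11.44, a difference of -0.07. PRDX6, the enzyme that uses glutathione, read 11.10 and 11.05, a difference of -0.05. All 3 lay near the middle of the genes of like level, with 290, 175 and 219 of the 500 nearest at or below them.

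**Figure D2:**
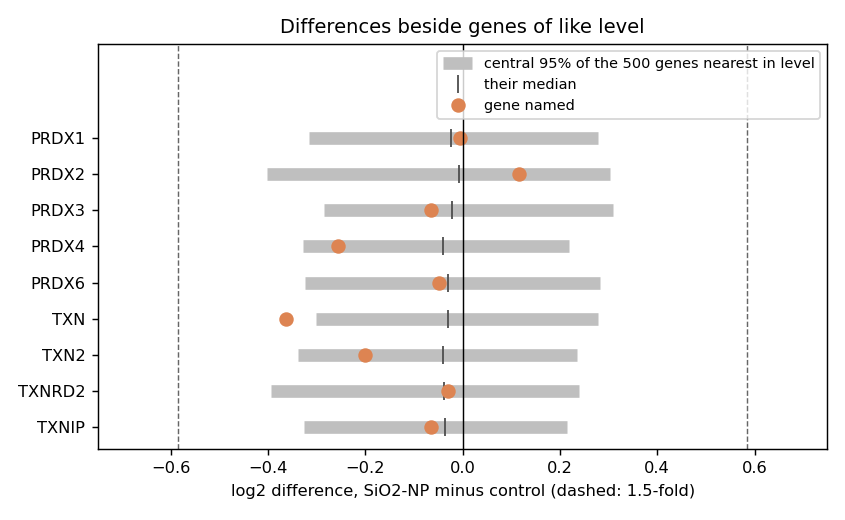
Log2 difference, SiO2-NP minus control (x axis), of the 9 measured genes (points), with grey bars for the central 95% of the 500 other expressed genes nearest in level, ticks for their medians and dashed lines at 1.5-fold. TXN at -0.36 is the only point outside its bar, which ends at -0.30, and no point reaches a dashed line.

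Grouped by compartment, neither the cytosol nor the mitochondrion held the lower values alone. The 5 genes listed as cytosolic (PRDX1, PRDX2, PRDX6, TXN and TXNIP) had a median difference of -0.05, and 4 of them were lower than in the control. TXNIP was counted with them although it is not confined to the cytosol. The 3 measured mitochondrial genes (PRDX3, TXN2 and TXNRD2) had -0.07 with all 3 below. Of all expressed genes 59.8% lay below, with a median of -0.03. After quantile normalization 3 of the 5 cytosolic and 2 of the 3 mitochondrial genes lay below, against 46.4% of the expressed genes. Within each compartment the thioredoxin had the lowest value. Grouped by role, the 5 peroxiredoxins had a median of -0.05, and the 2 thioredoxins, TXNRD2 and TXNIP together had -0.13. No test separates these groups, which hold 3 to 5 genes on 1 array per condition.

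The scaling of the arrays changed the sign of small differences. Quantile normalization, or centring each gene on the running median of genes of like level, put PRDX1 and TXNRD2 above the control (by 0.03 and 0.02 after quantile normalization), which left 6 of 9 genes below. With them 46.4% and 49.9% of the expressed genes lay below, against 59.8% as deposited, so the count of 8 of 9 partly follows the scaling. TXN ran from -0.37 to -0.32 over the alternatives, PRDX4 from -0.27 to -0.20 and TXN2 from -0.21 to -0.15, and PRDX2 stayed above at 0.11 to 0.14. PRDX4 passed 1.2-fold after centring on the median difference of all genes (0.0095) and under no other setting. No member passed 1.5-fold under any of the 8 alternatives, of which only the 4 other scalings changed a member's value.

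**Figure D3:**
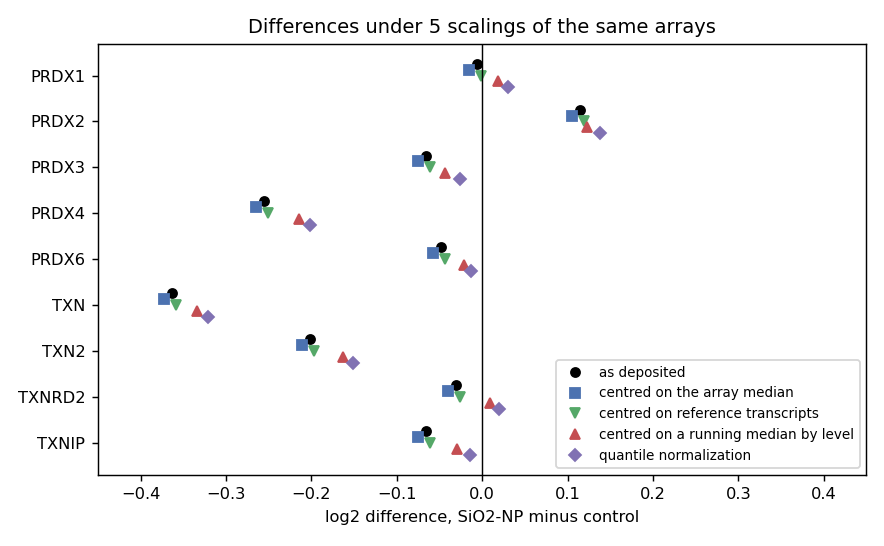
Log2 difference, SiO2-NP minus control (x axis), of the 9 measured genes as deposited and under 4 other scalings of the same 2 arrays, each marked by its own symbol. The symbols of PRDX1 and TXNRD2 fall on both sides of 0, while those of TXN stay between -0.37 and -0.32. The label that names the array median stands for centring on the median difference of all genes.

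The genes that serve the same cycle were described from fixed lists. TXNRD1, the cytosolic reductase and an NRF2 target, read 9.85 in the control and 9.90 after SiO2-NP, a difference of 0.05. SRXN1, sulfiredoxin, which rescues over-oxidised peroxiredoxins and is a further NRF2 target, read 9.64 on both arrays, a difference of -0.0051 that turned positive with 2 of the scalings. The sestrins SESN1 and SESN2 differed by -0.06 and -0.03, and SESN3, under the level filter, by -0.06. Of these 4 expressed genes 3 lay below the control, with a median of -0.02. TXN, the substrate of TXNRD1, thus had a lower value on the exposed array while its reductase had a slightly higher one. NFE2L2, which encodes NRF2, read 11.19 and 11.04, and KEAP1, its inhibitor, read 9.24 and 9.05, differences of -0.14 and -0.19. In the list of NRF2 and its partners 4 of 5 expressed genes were lower than in the control, against 59.8% of all expressed genes. Their median was -0.13, or -0.08 after quantile normalization, and the exception was MAFG at 0.16. KEAP1, BACH1 (-0.13) and CUL3 (-0.10), all lower, restrain NRF2, so the count gives no direction for NRF2 activity.

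In the list of thioredoxin-domain genes most transcripts had lower values. Of 11 expressed thioredoxin-domain genes 9 lay below the control, with a median difference of -0.14, against 59.8% and -0.03 over the expressed genes. The count was 9 under each of the 4 other scalings too, and the median moved to -0.09 after quantile normalization. None of the 11 reached 1.2-fold. TXNL4A, a spliceosome component, read 10.84 and 10.61, TXNDC9, which modulates chaperonin folding, read 8.72 and 8.51, and TXNL4B read 9.23 and 9.05, with differences of -0.22, -0.21 and -0.18. A further 9 measured genes of the list lay under the level filter. The list drawn as disulfide isomerases and oxidases of the ER was split, with 5 of 11 below and a median of 0.00098. With centring on the median difference of all genes these were 6 of 11 and -0.0085. QSOX2, QSOX1 and VKORC1 had the largest differences in that list, -0.22, 0.17 and -0.14. The list is looser than its name, since QSOX1 and QSOX2 are not confined to the ER and VKORC1 is a reductase. These lists do not divide genes by compartment, because the ER proteins TMX1 (-0.14), TXNDC12 (-0.07) and TMX4 (0.01) were counted as thioredoxin-domain genes. PDIA4 and PDIA6, abundant folding enzymes of the ER that were named after their values were seen, differed by 0.01 and 0.02. Glutaredoxins, the glutathione-fed counterparts of thioredoxin, had 2 of 4 below, from -0.12 (GLRX3) to 0.15 (GLRX5), with GLRX at -0.04 and GLRX2 at 0.05.

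**Figure D4:**
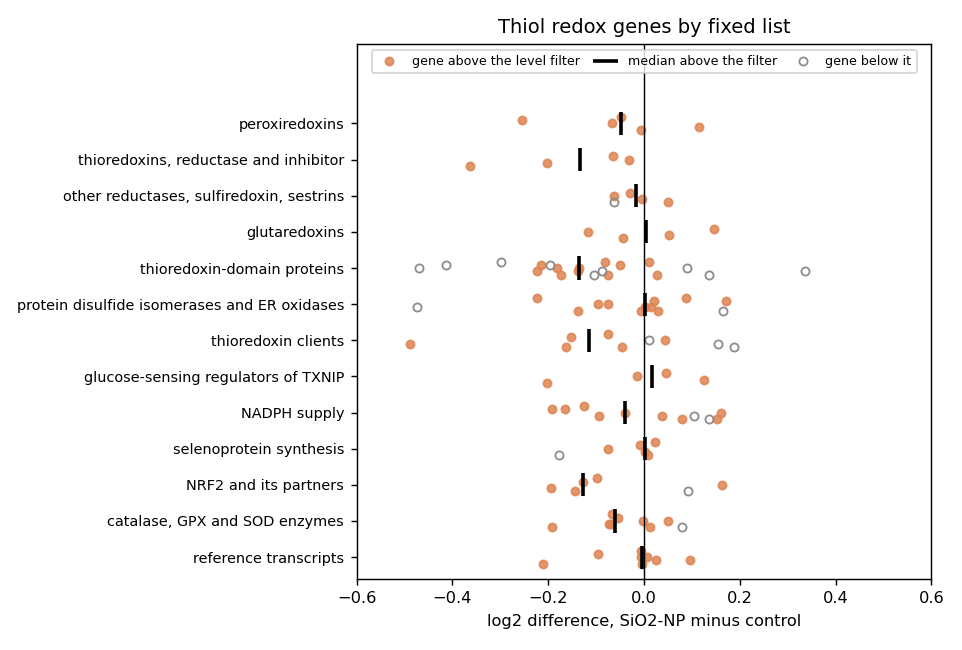
Log2 difference, SiO2-NP minus control (x axis), of single genes in fixed thiol redox lists (y axis), filled where above the level filter and open where below it, with a black bar at the median of the filled points. The list of thioredoxin-domain proteins sits mostly left of 0 with a median of -0.14. The list drawn as disulfide isomerases and ER oxidases, a loose name for its genes, centres on 0.

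Among the enzymes that thioredoxin reduces, 2 of the 3 ribonucleotide reductase subunits had lower values. RRM2, the S-phase subunit, read 9.82 in the control and 9.33 after SiO2-NP, 1.40-fold lower, and RRM1 read 9.93 and 9.77, a difference of -0.16. RRM2B, the p53-induced subunit, differed by 0.04. The methionine sulfoxide reductase MSRA differed by -0.15, and the list had 5 of 6 expressed genes below, against 59.8% of all expressed genes, with a median of -0.11. After quantile normalization these were 4 of 6 and -0.07. RRM2 was the only gene of the list past 1.2-fold.

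The regulators of TXNIP gave no common direction. MLXIPL, which encodes the glucose-sensing factor ChREBP, read 9.97 and 10.10, a difference of 0.13, while MLXIP, which encodes MondoA, read 8.77 and 8.57, a difference of -0.20. Their shared partner MLX differed by -0.01, a sign that scaling turned. MAX, which was put in the same list but is not their partner, differed by 0.05. TXNIP, whose promoter shown above holds the paired E-boxes, lay between MLXIPL and MLXIP at -0.07. ARRDC4, an arrestin regulated by the same factors, read 6.40 and 6.07, under the level filter, with a difference of -0.33, and its promoter window held the E-box CACGTG. The other alpha-arrestins above the filter were ARRDC3 (0.22) and ARRDC1 (-0.18), and ARRDC2, under it, differed by 0.14.

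The supply of NADPH and of selenoproteins, on which thioredoxin reductase depends, showed small differences on both sides. Beside the counts that follow, 59.8% of all expressed genes lay below the control, and 46.4% after quantile normalization. Of 9 expressed NADPH genes 5 were lower than in the control (median -0.04), and the largest differences were those of NADK2 (-0.19), ME2 (-0.16) and NADK (0.16). The list for selenoprotein synthesis had 2 of 5 below and a median of 0.0028, led by SEPSECS (-0.07). The scaling turned this list, to 4 of 5 below and -0.0067 with centring on the median difference of all genes. After quantile normalization these were 1 of 5 and 0.05. A list of catalase, glutathione peroxidases, which like peroxiredoxins remove peroxide, and superoxide dismutases, which form it, had 6 of 8 below and a median of -0.06 (5 of 8 and -0.01 after quantile normalization). GPX7, a glutathione peroxidase of the ER, read 9.86 and 9.67, a difference of -0.19, while GPX1 differed by -0.07 and SOD1 by -0.07. The reference transcripts had a median of -0.0048, with ACTB at -0.0042 and GAPDH at 0.10, and B2M (-0.21) and HPRT1 (-0.10) were the lowest of them. After quantile normalization the median was 0.02 for the reductases and sulfiredoxin, 0.00073 for the NADPH genes and 0.04 for the reference transcripts, and GLRX and ACTB also lay above the control.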

How the data were processed

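RNA of 1 control and 1 SiO2-NP culture of HepG2 cells was hybridised to Affymetrix arrays. The deposited table holds log2 intensity per probe, a scale read from its values (2.08 to 14.4). Per the submitters' processing notes, the authors used RMA and MAS5; which of them made the values, with what settings, is not given in the sources used here. The first of them equalises the arrays' distributions, which hides any shift common to most transcripts. Of 33297 probes, 19460 carried 1 symbol in the platform annotation and were averaged per gene. No test was possible with 1 array per group, and precision is limited by their number. Folds of 1.5 and 1.2 served as descriptive thresholds. Genes named were all members, every gene or the 3 largest differences of each list, and TXNRD1, SRXN1, MLXIPL, ARRDC4, NFE2L2, KEAP1, RRM2, ACTB and GAPDH. Exceptions were the hepatocyte markers, which were not named singly, and selenoprotein synthesis, where only SEPSECS was. PDIA4, PDIA6, RRM2B, TMX1, TXNDC12, TMX4, BACH1 and CUL3 fell outside this rule and were named after their values were seen. The members and lists were chosen with earlier results of these data known. Promoter windows came from RefSeq (GRCh38.p14), and their motifs were chosen after the differences were seen. Alternatives covered the filter, centring, quantile normalization, probe rules and thresholds. The steps were tested on simulated data. Software was pandas 2.3.3 with NumPy 2.4.6 under Python 3.11.15, and matplotlib 3.10.9 for figures.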

Additional observations from a re-analysis of the deposited data

How the results depend on the processing

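Of the 9 measured members, 7 kept their sign under every one of the 8 alternatives that gave them a value (the filter at the 75th percentile left out PRDX2). The exceptions were PRDX1 and TXNRD2, and the largest move of a member's difference was 0.05. Each member had 1 probe, and the filter and probe alternatives left its value unchanged. Only the 4 other scalings could move it. Centring on the median difference of all genes or of the reference transcripts moved every gene by the same amount. The members' median ran from -0.07 to -0.01 and was -0.06 without TXN, an alternative chosen after seeing the data. The number of members past the threshold was 0 at 1.5-fold and 1 at 1.2-fold. Over the expressed genes the counts moved more, from 13 higher and 23 lower: to 275 and 693 at 1.2-fold, 1 and 4 at 2-fold, 61 and 68 without the filter on dim genes, 21 higher with the running median, 22 higher with quantile normalization and 8 lower with the filter at the 75th percentile. Fewer or more genes tested, or another threshold, account for these by construction, except under the 2 scalings, where the cause was not tested. With dim genes included, the fibroblast marker median was 0.13 in place of 0.25 (1 gene) and the leukocyte marker median 0.11 in place of -0.04 (2 genes). Pseudocounts, planned for linear values, were not run on a log2 table. No paired analysis was possible because the groups hold a single array each, and no replicate could be left out for the same reason.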

Other observations

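Selenoproteins, the family to which the thioredoxin reductases belong, were collected by symbol after the data had been seen. Of 19 expressed selenoprotein genes 13 lay below the control, against 59.8% of all expressed genes. Their median difference was -0.03, the same to 2 decimals as that of all expressed genes. After quantile normalization 8 lay below, against 46.4% of the expressed genes, and the median was 0.02. SELENOW, a small selenoprotein with a thioredoxin-like fold, read 8.83 in the control and 8.61 after SiO2-NP, a difference of -0.22. SELENOP, the plasma selenium carrier secreted by hepatocytes, read 12.61 and 12.39, a difference of -0.21. DIO1, the deiodinase of liver, differed by -0.18, and SELENOM, an ER protein, had the highest value at 0.10.

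Some genes of the cycle were read only by probes that the comparison set aside, or lay under the level filter. The probe shared by TXNRD3 and its neighbour TXNRD3NB read 7.39 (control) and 7.11 (SiO2-NP), and the probe shared by TXNDC5 and its neighbours read 10.62 and 10.55. PRDX6-AS1, the antisense transcript of PRDX6, read 6.62 and 6.25 on its own probe, a difference of -0.37 under the level filter. Among dim thioredoxin-domain genes, TXNDC17, which lay just under the filter, read 7.44 and 7.03, TXNDC16 read 6.14 and 5.67, and NME9 read 5.74 and 6.08. These were named after their values were seen.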
